A study of Mus musculus with 123 samples.

Results

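The Myc and Max network is a family of transcription factors that pair with one another through a shared dimerization domain and bind short DNA elements as dimers. Its 8 members examined here, Myc, Mycn, Mycl, Max, Mga, Mnt, Mxi1 and Mlx, were chosen by their gene names from the 29,022 genes counted in single mouse embryos. All 8 passed the filter on low counts (detection in 0.5 or more of the embryos at 1 stage or more) and were tested, among 14,053 genes in the comparisons of control and knockout embryos and among 13,923 genes in the comparisons that include embryos with an intact maternal gene.

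The study deleted Oct4 (gene symbol Pou5f1) or Sox2, 2 transcription factors of pluripotent cells, to ask what each does while the inner cell mass (ICM) forms. RNA was sequenced from single embryos of 2 lines at 3 stages, 96 of them Ctrl or KO and 27 MWT, as defined below. Control (Ctrl) embryos had lost the maternal copy of the gene, which Zp3-Cre, a Cre recombinase active in the oocyte, deleted from a floxed allele, and they kept a wild-type paternal copy. Knockout (KO) embryos lacked both copies, since their paternal allele was a mutant one linked to a fluorescent reporter (mKO2 in the Oct4 line, EGFP in the Sox2 line, each driven by the Pgk promoter), and they were recognised by that fluorescence.

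Each line had 8 Ctrl and 8 KO embryos at each stage. MWT embryos came from mothers with the floxed alleles and no Cre, so the maternal gene product was present, and their own genotypes are not given embryo by embryo. From the Oct4 line they comprised 7 morulae, 5 early and 8 late ICMs, and from the Sox2 line 7 early ICMs. The mice were labelled B6C3F1. Morulae (E2.75) were whole embryos, whereas ICMs of the early (E3.75) and the late stage (E4.5) came from embryos cultured from E2.5 with 1 µM of the MEK inhibitor PD0325901 and were isolated by immunosurgery, which lyses the outer cells. A step from morula to ICM therefore changed the age, the culture and the cells sampled at once. Source names of the Oct4 MWT ICMs give the preceding stage, so their stage was taken from the titles, and those of the early stage carry no mention of the inhibitor.

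Myc, Mycn and Mycl activate genes for growth, ribosome production and metabolism when bound to Max, the partner that all of them need. Mnt, Mxi1 and Mga also bind Max and compete with the Myc proteins, Mnt and Mxi1 by recruiting Sin3 and histone deacetylases and Mga as the scaffold of a Polycomb complex, PRC1.6, that silences germline genes. Mlx is a related partner that binds Mnt and the glucose-sensing factors Mlxip and Mlxipl. In early embryos and embryonic stem cells Myc and Mycn are known for supporting proliferation and self-renewal, and loss of both slows growth.

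Positions are 1-based on mm10. Myc (ENSMUSG00000022346) lies at chr15:61985391-61990374 on the plus strand, Mycn (ENSMUSG00000037169) at chr12:12936093-12941914 on the minus strand and Mycl (ENSMUSG00000028654) at chr4:122995652-123002485 on the plus strand. Max (ENSMUSG00000059436) spans chr12:76937269-76962201 on the minus strand, and Mga (ENSMUSG00000033943) spans chr2:119897228-119969581 on the plus strand. Mnt (ENSMUSG00000000282) at chr11:74830920-74845725, Mxi1 (ENSMUSG00000025025) at chr19:53310518-53375810 and Mlx (ENSMUSG00000017801) at chr11:101087277-101092207 are all on the plus strand. Exons of Mlx share 385 bases with exons of Psmc3ip on the opposite strand, and those of Mxi1 share 194 bases with Gm10197 on the opposite strand. Whether the authors counted by strand is not stated, so some reads of these pairs may have been credited to the partner or left uncounted.

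The element most often bound by Max dimers is the E-box, spelled CACGTG, which reads the same on both strands. It was searched in RefSeq promoters (GRCm38.p6, 250 bases before to 50 after a start site), of which 9 belong to 7 members. The promoters of Max, Mnt and Mlx held it, that is 3 of 9, against 7.15% of all 32,851 promoters. The octamer ATGCAAAT, the element bound by Oct4, was in 0 of the 9 and in 1.74% of all promoters (either strand). The matches are shown because the network's own element stands at these start sites; a match is a description of the letters, and no binding was measured. Each sequence below is read 5′ to 3′ on the gene's strand with the E-box in capitals, at chr12:76962234-76962263 for Max, chr11:74830789-74830818 for Mnt and chr11:101087238-101087267 for Mlx. The first base of the E-box lies at -3, -123 and -40 from the RefSeq start site of that promoter, in that order. These start sites differ from the gene starts listed above, and the Max window lies wholly outside the listed span of Max.
Max: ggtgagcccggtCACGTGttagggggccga
Mnt: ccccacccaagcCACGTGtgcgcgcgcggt
Mlx: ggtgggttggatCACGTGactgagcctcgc

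Each embryo yielded between 525,755 and 1,344,035 UMIs (median 897,407), where a UMI is a random tag that lets a molecule be counted once. Levels are given as CPM, UMI counts brought to a common library size after scaling by the trimmed mean of M-values (TMM), so that 1 CPM is about 1 molecule counted in an embryo. Because each transcript was counted by its 3′ end, levels were not divided by gene length. The labels matched the deleted genes: Pou5f1 had 3, 7 and 1 UMIs in all in the Oct4-KO morulae, early ICMs and late ICMs, against mean levels of 21.1 to 77.7 CPM in Ctrl embryos, and Sox2 fell from 13.7 to 1.56 CPM, from 106 to 24.3 CPM and from 174 to 16.7 CPM in the Sox2-KO groups. Embryos of a group were treated as replicates, and the labels do not say whether they shared a litter.

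The network's levels fell into distinct ranges. Max and Mga had the highest levels in most groups, with group means of 43.5 to 103 CPM for Max and 30.2 to 80.3 CPM for Mga over the 16 groups. Mlx, at 27.2 to 45.9 CPM, and Mnt, at 11.8 to 31.2 CPM, were lower, and Mxi1 lay between 9.90 and 19.2 CPM. Myc ranged from 8.48 to 107 CPM and Mycn from 6.77 to 132 CPM, so the means of these Myc genes spanned a wider range than those of Max, Mga, Mnt, Mxi1 or Mlx. Mycl was the scarcest member, at 0.814 to 10.2 CPM. When the 16 groups were ranked for each gene, the step between neighbours in rank exceeded the larger SD of the pair only for Max between Sox2-KO morulae and the group below (20.5 CPM) and for Mga between Sox2 Ctrl late ICMs and the group below (10.4 CPM). Every other pair of neighbours lay within its spread.

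**Figure D1:**
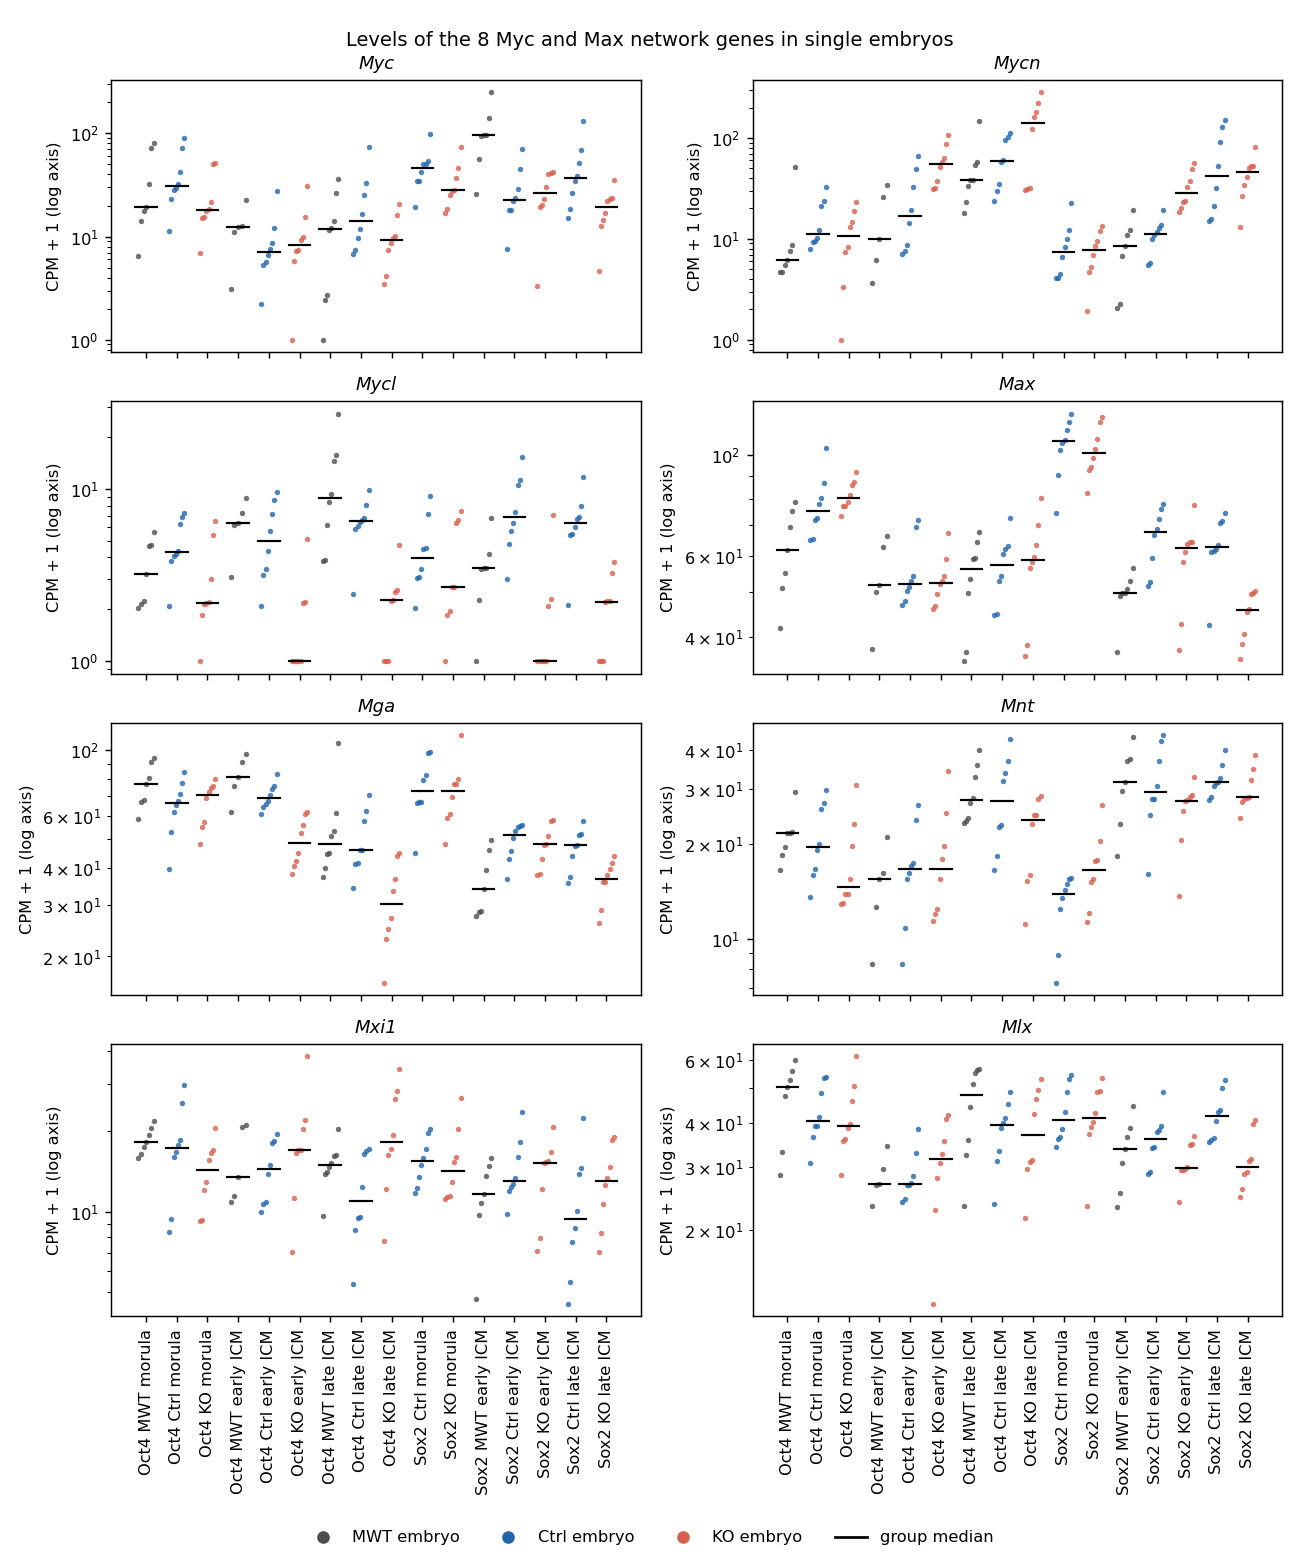
Level of each of the 8 genes in every embryo, as CPM + 1 on a log axis, by line, genotype and stage. Each point is 1 embryo and the bar is the group median. Group means of Max run from 43.5 to 103 CPM and those of Mycn from 6.77 to 132 CPM, and Mycl lies near 0 in the KO ICMs.

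In each KO comparison the question was which network genes depend on Oct4 or Sox2. A gene was called when the Benjamini-Hochberg adjusted p of edgeR's quasi-likelihood test was under 0.05 and the absolute log2 fold change was at least 1. In morulae 0 of 8 members were called in the Oct4 line and 0 of 8 in the Sox2 line, beside 0.804% and 0.00712% of all genes tested. None of them had an unadjusted p under 0.05 in edgeR (0 in each line), and DESeq2 and limma on the authors' rlog values also called 0. At the early ICM stage 2 of 8 were called in the Oct4 line, 1 higher and 1 lower, beside 10.9% of all genes (4.77% higher, 6.11% lower), and at the late stage 2 of 8, 1 in each direction, beside 18.1% (9.25% higher, 8.85% lower). For Sox2 these were 2 of 8, 1 in each direction, beside 3.27% (1.57% higher, 1.69% lower), and 2 of 8, both lower, beside 6.95% (3.34% higher, 3.61% lower). The median log2 fold change of the 8 members in these 4 ICM comparisons was 0.12, -0.18, -0.14 and -0.47, and that of all genes tested lay between -0.01 and 0.01. By the adjusted p alone, 3 members at the early (21% of all genes) and 4 at the late stage (31.7%) passed in the Oct4 line, and 2 (7.04%) and 3 (13.8%) in the Sox2 line. With 8 genes, these counts are too small to set the members apart from all genes.

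**Figure D2:**
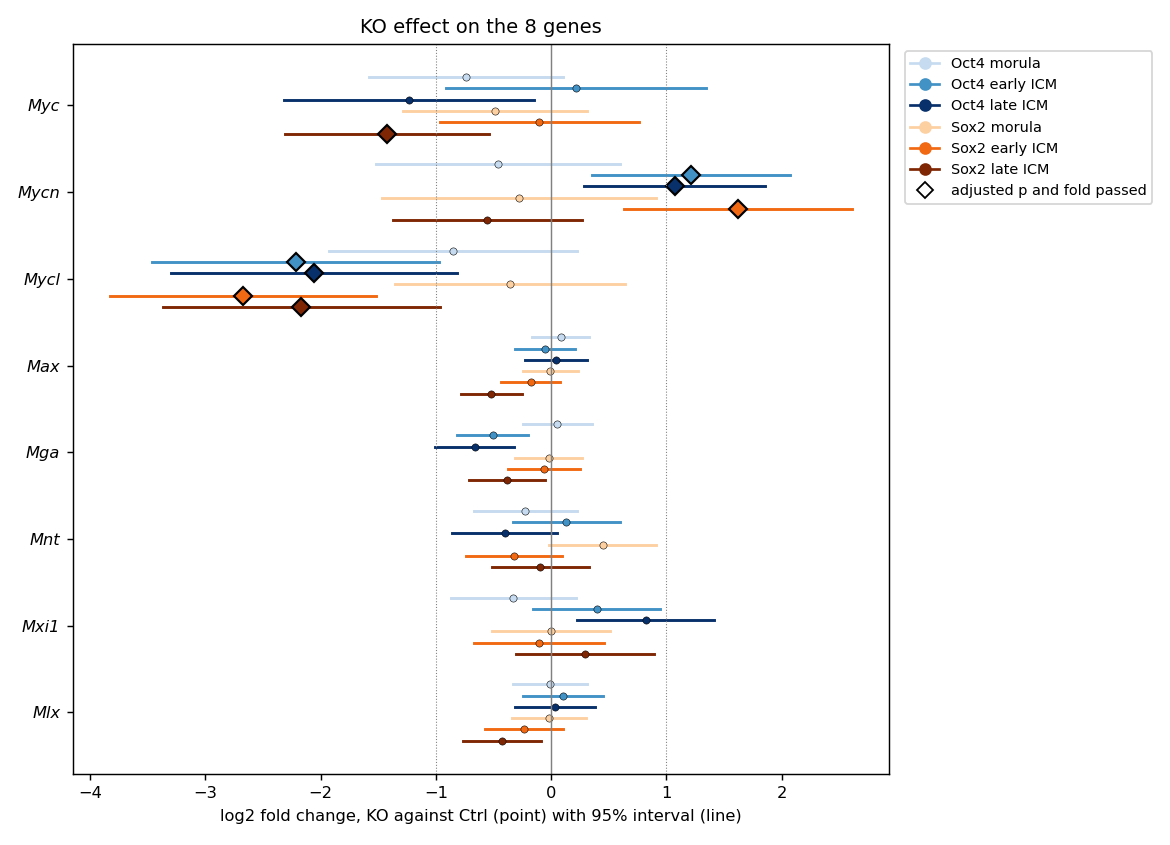
Log2 fold change of KO against Ctrl embryos for the 8 genes in the 6 comparisons, with 95% intervals from edgeR's quasi-likelihood fit. Mycl lies left of 0 in all 4 ICM comparisons, Mycn lies right of 0 in 3 of them, and Max, Mnt and Mlx stay within 1 log2 unit of 0.

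Several cell types may contribute to an isolated ICM, although the authors gave the inhibitor to hold back primitive endoderm and direct the ICM to epiblast. In such bulk samples fewer cells of a type cannot be told apart from less RNA per cell. The 10 trophectoderm markers, none of them at 0 in any ICM group, summed to a median of 920.6 CPM (491 to 1639) in Oct4 Ctrl late ICMs and 3638 CPM (2071 to 4843) in Oct4-KO late ICMs, with 8 of the 10 called higher. In early ICMs of that line the sum was 579.8 CPM (319.5 to 1622) in Ctrl and 969 CPM (569 to 1729) in KO embryos, with 2 called higher and 1 lower. For Sox2 it was 509 CPM (190.3 to 652) in Ctrl and 1414 CPM (1031 to 2688) in KO early ICMs, with 5 higher and 1 lower, and 701 CPM (275.5 to 3498) in Ctrl and 1519 CPM (1006 to 3225) in KO late ICMs, with 4 higher. The 10 epiblast markers moved the other way, with 8 called lower in Oct4-KO early ICMs, 9 in Oct4-KO late ICMs and 5 at each stage in Sox2-KO ICMs. Their sum fell from 3145 CPM (2777 to 4233) to 1854 CPM (1674 to 2211) and from 3885 CPM (3377 to 4651) to 1129.9 CPM (745 to 1378) in the Oct4 line, and it was 2757 CPM (2236 to 4597) against 2302 CPM (1878 to 2462) and 3721 CPM (3276 to 4884) against 2153 CPM (1789 to 3056) in the Sox2 line. Of the 10 primitive endoderm markers, Foxa2 was at 0 in the early ICM groups and Sox7 also in Oct4-KO early ICMs, while the sum was 742 CPM (590.4 to 896) against 1164 CPM (800.3 to 1262) in Oct4 early ICMs and 669 CPM (287 to 1555) against 1458 CPM (980.1 to 1753) in Oct4 late ICMs. Within the list Dab2 rose from a mean of 75.2 to 411 CPM and from 153 to 736 CPM. Of the 8 markers tested 1 was called higher and 2 lower at the early stage (median log2 fold change -0.44) and 2 higher and 4 lower at the late stage (median -0.77), among them Sox17 (-6.57 ± 1.13, adjusted p = 2.17e-06). In Sox2 ICMs the sum was 727 CPM (219.6 to 894) against 839 CPM (595 to 967) at the early stage and 611 CPM (365 to 1800) against 756 CPM (628 to 1294) at the late stage, where 1 was called lower (Lama1), while at the early stage 1 was called higher (Dab2). Dab2, Sox17 and Lama1 are named after their values were seen. These lists moved with the KO groups in which members were called, and their part in the results below was not tested.

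Mycn, the family member known for its role in early development and neural progenitors, was higher in KO ICMs of both lines at the early stage and in Oct4-KO ICMs at the late stage. In Oct4 early ICMs the lowest, median and highest levels were 6.04, 15.9 and 65.4 CPM in Ctrl and 30.4, 53.9 and 106 CPM in KO embryos. All 8 KO embryos lay above the Ctrl median, although the groups overlapped because 3 Ctrl embryos reached 31.7 to 65.4 CPM. The mean rose from 24.6 ± 22.0 to 57.5 ± 27.0 CPM (SD, n = 8 each), a log2 fold change of 1.22 ± 0.43 (SE; edgeR adjusted p = 0.033).

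In Sox2 early ICMs Mycn stood at 4.54, 10.3 and 18.5 CPM (lowest, median, highest) in Ctrl and 17.3, 27.4 and 56.0 CPM in KO embryos. The groups overlapped only between the highest Ctrl and the lowest KO embryo, and all 8 KO embryos lay above the Ctrl median. The mean rose from 10.3 ± 4.502 to 31.8 ± 14.3 CPM, a log2 fold change of 1.62 ± 0.50 (adjusted p = 0.0298).

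In Oct4 late ICMs Mycn ran from 22.6 through a median of 57.8 to 112 CPM in Ctrl and from 29.8 through 141 to 284 CPM in KO embryos. The KO embryos split widely, 3 of them between 29.8 and 30.6 CPM and the other 5 at 121 CPM or more, so the groups overlapped at the low end. The mean rose from 63.5 ± 34.8 to 132 ± 96.6 CPM (log2 fold change 1.07 ± 0.40, adjusted p = 0.0297). This call was lost with DESeq2 (adjusted p = 0.064), with only the 2 groups in the fit (0.0602), with limma on rlog values (0.126), with library totals (log2 fold change 0.99) and with the first digit of the label number as a block (0.79, adjusted p = 0.112). In Sox2 late ICMs Mycn was at 62.5 ± 54.0 CPM in Ctrl and 43.1 ± 20.7 CPM in KO embryos, with a log2 fold change of -0.55 ± 0.41 that did not pass (adjusted p = 0.424, 95% interval -1.37 to 0.26).

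The 3 Mycn calls were close to the threshold. In Oct4 early ICMs the call was lost without Ctrl embryo 1, 2, 3, 7 or 8 or KO embryo 2 or 18 (adjusted p of 0.0537 to 0.0955), with library totals in place of TMM scaling (0.0514) and with counts thinned to the lowest total (0.0552). In Oct4 late ICMs it was lost without Ctrl embryo 1-4, 1-6 or 2-1 or KO embryo 1-2, 2-2, 2-5 or 2-7 (0.0505 to 0.121). In Sox2 early ICMs it was lost without Ctrl embryo 5 or 7 or KO embryo 1 or 5 (0.056 to 0.0686) and with thinned counts (0.0708). Over all the fits without 1 embryo the log2 fold change ran from 1.02 to 1.61, from 0.81 to 1.23 and from 1.48 to 1.81 in these 3 comparisons.

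Mycl, a family member known from lung tumours and dendritic cells, was lower in KO ICMs of both lines at both stages. In Oct4 early ICMs it was counted in all 8 Ctrl embryos (32 UMIs, 1.09 to 8.58 CPM) but in 3 of 8 KO embryos (6 UMIs, 0 to 4.13 CPM), and the mean went from 4.51 to 0.814 CPM (log2 fold change -2.22 ± 0.63, adjusted p = 0.00593). In Oct4 late ICMs the Ctrl embryos held 30 UMIs (1.44 to 8.80 CPM) and the KO embryos 7 UMIs in 5 embryos (0 to 3.70 CPM), with means of 5.51 and 1.17 CPM (log2 fold change -2.05 ± 0.63, adjusted p = 0.00699). All 8 late KO embryos, and 7 of 8 early ones, lay below the Ctrl median, and the groups overlapped at the low end at both stages.

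In Sox2 early ICMs Mycl went from 53 UMIs in 8 of 8 Ctrl embryos (2.00 to 14.2 CPM) to 7 UMIs in 3 of 8 KO embryos (0 to 6.02 CPM), with means of 7.03 and 1.05 CPM and a log2 fold change of -2.67 ± 0.58 (adjusted p = 0.000876). In Sox2 late ICMs it went from 39 UMIs in 8 Ctrl embryos (1.11 to 10.7 CPM) to 7 UMIs in 5 KO embryos (0 to 2.77 CPM), with means of 5.51 and 1.09 CPM (log2 fold change -2.17 ± 0.60, adjusted p = 0.00774). The KO groups of both lines and stages thus had between 6 and 7 UMIs of Mycl over 8 embryos each, which is near the limit of what these libraries can count. All 4 calls were kept whichever embryo was left out, with adjusted p of at most 0.0215. The log2 fold change then ran from -3.28 to -2.01 in Oct4 early and from -2.57 to -1.88 in Oct4 late ICMs. In Sox2 ICMs it ran from -3.98 to -2.44 at the early and from -2.44 to -1.98 at the late stage. Limma on rlog values gave shrunken changes under the fold threshold in Oct4 early (-0.70), Oct4 late (-0.73) and Sox2 late ICMs (-0.77), each with an adjusted p of at most 0.00457. In morulae Mycl was already low in Ctrl embryos, at 3.87 ± 1.76 CPM in the Oct4 line and 3.61 ± 2.37 CPM in the Sox2 line, and the KO effects of -0.85 ± 0.54 and -0.36 ± 0.50 did not pass (adjusted p = 0.580 and 1.0). When all libraries were thinned to the lowest total, the Sox2 late ICM call was lost (log2 fold change -2.07, adjusted p = 0.0675).

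Myc, the founding member and a regulator of growth and ribosome production, was called lower in Sox2-KO late ICMs only. Ctrl embryos there ran from 14.3 through a median of 35.8 to 130.1 CPM and KO embryos from 3.67 through 18.5 to 34.1 CPM. Each of the 8 KO embryos was under the Ctrl median, but the 4 lowest Ctrl embryos overlapped with them. The mean fell from 47.3 ± 37.9 to 18.1 ± 9.12 CPM (log2 fold change -1.42 ± 0.45, adjusted p = 0.0197). Without Ctrl embryo 2-1, the highest of all, it stood at -0.99 log2 units (adjusted p = 0.145), and without KO embryo 1-1, the lowest, the adjusted p was 0.0529. Limma on rlog values gave -0.97, just under the fold threshold.

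In Oct4 late ICMs Myc had a similar estimate that did not pass, at 22.2 ± 22.6 CPM in Ctrl and 9.05 ± 5.84 CPM in KO embryos (log2 fold change -1.23 ± 0.55, adjusted p = 0.074). Without 1 embryo at a time it ran from -1.53 to -0.71 with adjusted p of 0.0368 to 0.364, and it was called in 4 of these 16 fits. It was also called with DESeq2 (adjusted p = 0.0455) and with the first digit of the label number as a block (-1.32, adjusted p = 0.0488). The effects in the 2 lines differed by 0.19 ± 0.74 (95% interval -1.28 to 1.66, adjusted p = 0.936), so the data do not separate them. In early ICMs the KO effects on Myc were 0.22 ± 0.57 in the Oct4 line and -0.10 ± 0.43 in the Sox2 line (adjusted p = 0.843 and 0.935).

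The 3 genes together give the make-up of the family in each group. In Oct4 Ctrl embryos Mycn made up 25.1% of the summed Myc, Mycn and Mycl UMIs in morulae, 65.4% in early ICMs and 70.9% in late ICMs, and in Oct4-KO embryos 29.2%, 84.0% and 92.9%. In Sox2 Ctrl embryos it made up 13.8%, 22.4% and 54.3%, and in Sox2-KO embryos 15.7%, 53.5% and 69.6%. Mycn exceeded Myc in 8 of 8 Oct4-KO embryos at each ICM stage and in 7 of 8 Oct4 Ctrl embryos, at each stage, while in the Sox2 line it did so in 0 of 8 Ctrl and 4 of 8 KO early ICMs and in 3 of 8 Ctrl and 8 of 8 KO late ICMs. The 54.3% of Sox2 Ctrl late ICMs is a share of pooled UMIs, and the median over single embryos was 41.2%. In morulae Myc was the leading member, at 65.1% to 80.0% of the family's UMIs in every group. These shares combine the tests above and were not tested again.

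**Figure D3:**
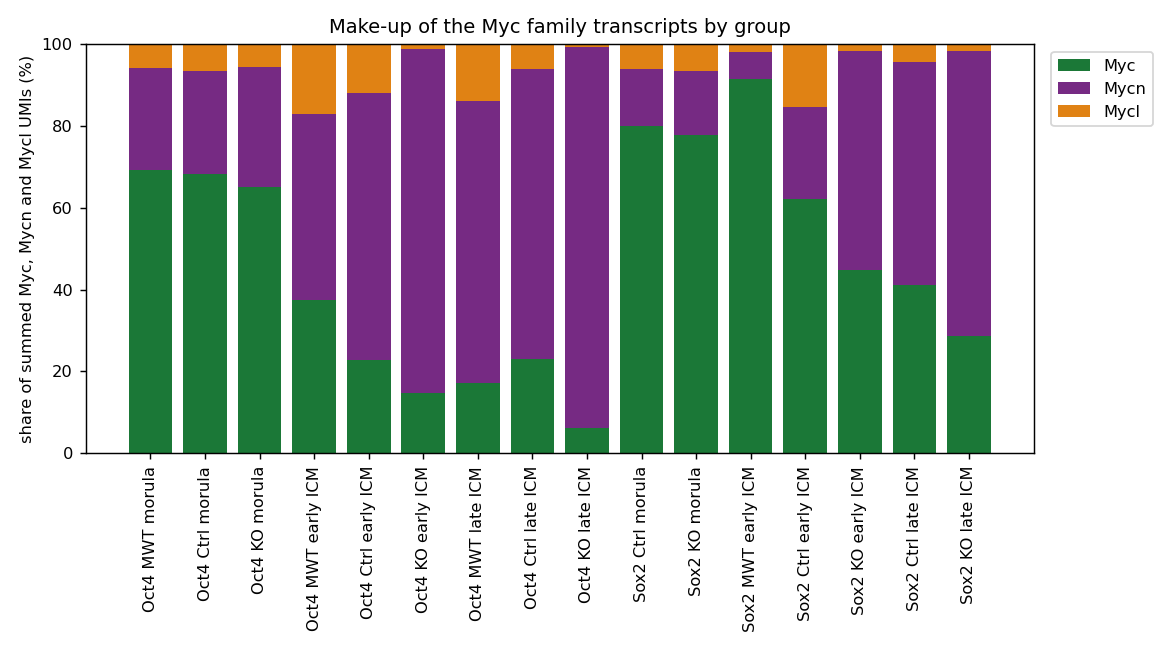
Share of Myc, Mycn and Mycl in their summed UMIs in each of the 16 groups, as stacked bars from 0 to 100%. Myc fills most of each morula bar, and the Mycn part grows from morula to late ICM and reaches 92.9% in Oct4-KO late ICMs.

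Max, the obligate partner, changed less. In late ICMs of the Sox2 line KO embryos had less of it, with lowest, median and highest levels of 41.5, 61.9 and 73.4 CPM in Ctrl and 34.7, 44.7 and 49.4 CPM in KO embryos. Only the lowest Ctrl embryo fell within the KO range. The mean fell from 62.5 ± 9.94 to 43.5 ± 5.65 CPM, a log2 fold change of -0.52 ± 0.13 (adjusted p = 0.00335), which passed the adjusted p but not the fold threshold, and it passed the adjusted p without any 1 of the 16 embryos (at most 0.0113). In Oct4 late ICMs Max was at 55.9 ± 9.58 and 56.8 ± 14.8 CPM (log2 fold change 0.04 ± 0.14, 95% interval -0.23 to 0.31). The difference between the lines at this stage, 0.56 ± 0.19 on the log2 scale, passed the adjusted p (0.0488), as did 8.67% of all genes, but not the fold threshold. In morulae and early ICMs the KO effects on Max lay between -0.18 and 0.08.

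Mga, the scaffold of PRC1.6, was lower in Oct4-KO ICMs. In early ICMs Ctrl embryos ran from 59.8 through 67.9 to 82.0 CPM and KO embryos from 36.9 through 47.6 to 60.9 CPM, and 2 embryos, the lowest Ctrl and the highest KO, made the only overlap. The mean fell from 69.2 ± 7.23 to 48.6 ± 9.42 CPM (log2 fold change -0.51 ± 0.16, adjusted p = 0.0115). In late ICMs the levels were 33.2, 44.9 and 69.5 CPM (lowest, median, highest) in Ctrl and 15.3, 29.1 and 43.7 CPM in KO embryos. At either stage each of the 8 KO embryos was under the median of its Ctrl group, with wider overlap at the late one. The mean fell from 48.9 ± 12.3 to 30.2 ± 10.2 CPM (log2 fold change -0.66 ± 0.17, adjusted p = 0.00148). Both passed by the adjusted p alone, and kept doing so without any 1 embryo (at most 0.0367 and 0.00652).

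In the Sox2 line the KO effect on Mga was -0.06 ± 0.16 in early ICMs (adjusted p = 0.877) and -0.38 ± 0.17 in late ICMs (adjusted p = 0.113). The difference between the lines was -0.44 ± 0.22 at the early and -0.28 ± 0.24 at the late stage and did not pass at either (adjusted p = 0.227 and 0.546). In morulae the effect was 0.05 ± 0.15 in the Oct4 line and -0.02 ± 0.15 in the Sox2 line, with 95% intervals of -0.25 to 0.35 and -0.31 to 0.27.

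Mxi1, a repressor that competes for Max, was higher in Oct4-KO late ICMs by the adjusted p alone. Ctrl embryos ran from 4.34 through 9.91 to 16.2 CPM and KO embryos from 6.72 through 17.3 to 33.3 CPM. In 7 of 8 KO embryos it exceeded the Ctrl median, and the ranges overlapped over most of the Ctrl range. The mean rose from 10.96 ± 4.46 to 19.2 ± 8.85 CPM (log2 fold change 0.82 ± 0.30, adjusted p = 0.0264), and without the least favourable embryo the adjusted p reached 0.096. In the other 5 KO comparisons its effects lay between -0.33 and 0.39 and did not pass.

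Mnt and Mlx passed in none of the 6 KO comparisons. For Mnt, a Max-binding repressor, the log2 fold changes lay between -0.40 ± 0.23 (Oct4 late ICMs, adjusted p = 0.181) and 0.45 ± 0.23 (Sox2 morulae, adjusted p = 1.0). For Mlx the lowest was -0.43 ± 0.17 in Sox2-KO late ICMs (41.2 ± 6.53 to 30.5 ± 5.84 CPM, adjusted p = 0.080) and the highest 0.10 ± 0.18 in Oct4-KO early ICMs. The 95% intervals of both genes stayed within 1 log2 unit of 0 in all 6 comparisons. Psmc3ip, whose exons overlap those of Mlx, fell by 1.09 ± 0.24 on the log2 scale in Oct4-KO late ICMs (42.0 ± 16.1 to 19.7 ± 6.11 CPM, adjusted p = 0.000196), where Mlx was at 36.8 ± 8.06 and 37.2 ± 11.2 CPM.

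Late ICM labels carry a number that starts with 1 or 2, and the labels do not say what that digit stands for. Within Oct4 late ICMs numbered from 1, mean Mycn was 61.5 ± 35.04 CPM in 5 Ctrl and 68.0 ± 75.7 CPM in 4 KO embryos, whereas among those numbered from 2 it was 66.7 ± 42.0 CPM in 3 Ctrl and 197 ± 70.9 CPM in 4 KO embryos. The 5 Oct4-KO late ICMs with high Mycn were the 4 of the second set and 1 of the first. With the digit as a block, Mycn changed by 0.79 ± 0.39 log2 units (adjusted p = 0.112). In Sox2 late ICMs both sets had lower Myc in KO embryos, from 25.9 to 12.95 CPM in the first and from 68.7 to 23.3 CPM in the second (n = 4 each). Mycn in the Sox2 line was at 27.9 and 30.8 CPM in the first set and at 97.2 and 55.5 CPM in the second, in Ctrl and KO embryos respectively. Mycl was lower in KO embryos of both lines within each set, from means of 4.95 to 6.43 CPM in Ctrl to 0.383 to 1.95 CPM in KO embryos.

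**Figure D4:**
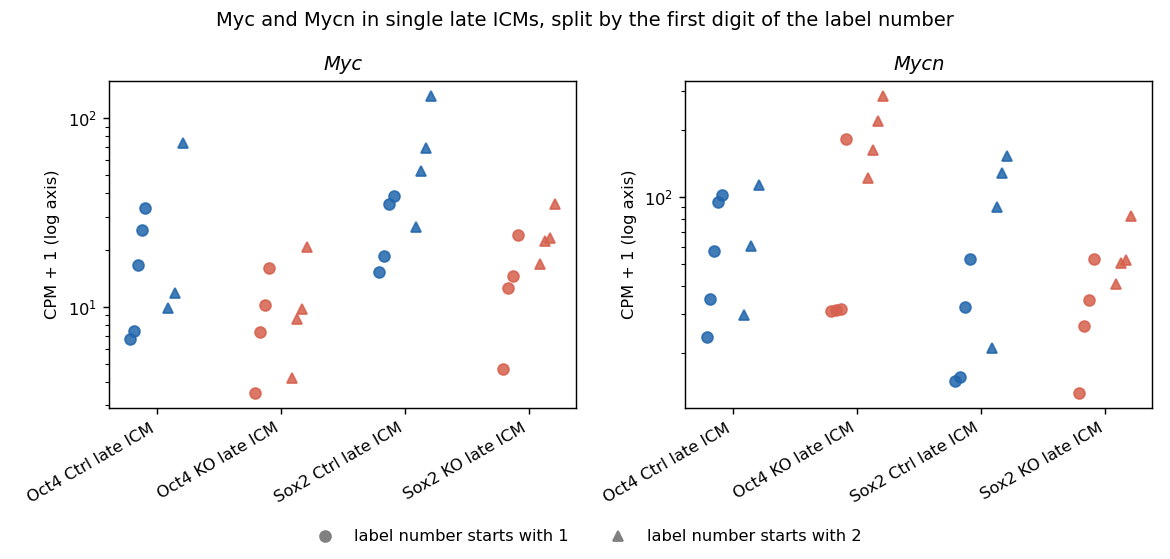
Myc and Mycn in single late ICMs on a log axis, with circles for embryos whose label number starts with 1 and triangles for those starting with 2. The triangles of Oct4-KO embryos all lie at 121 CPM of Mycn or more, and 3 of the 4 circles lie near 30.

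Stage steps asked how the network changes as the ICM forms and matures, separately in Ctrl, KO and MWT embryos. From morula to early ICM 1 of 8 members was called in Oct4 Ctrl embryos (29% of all genes tested), 2 in Oct4-KO (26.3%), 1 in Sox2 Ctrl (31.9%), 2 in Sox2-KO (32.5%) and 1 in Oct4 MWT embryos (27.6%). The Sox2-KO calls were Mycn and Mycl, and the latter (24 UMIs in morulae and 7 in early ICMs, log2 change -1.43 ± 0.63, adjusted p = 0.0497) was lost under each of the 7 other scalings, filters and models, which left 1. From early to late ICM 2 of 8 were called in Oct4 Ctrl embryos (15.6%), 1 in Oct4-KO (16%), 1 in Sox2 Ctrl (2.9%), 0 in Sox2-KO (1.07%) and 2 in Oct4 MWT embryos (13.2%). In the Sox2-KO step from early to late ICM 2 members had an unadjusted p under 0.05 in edgeR, and DESeq2 and limma on rlog values called 0. With 8 genes these counts are too small to be read against those shares in either step.

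Markers of the cell types moved in the same steps. From early to late ICM, 4 of 10 trophectoderm markers were called higher in Sox2 Ctrl (median log2 change 1.14), 6 in Oct4-KO (1.66), 1 in Oct4 Ctrl (0.05) and 1 in Sox2-KO embryos (0.08), with 0 lower in these groups, and in Oct4 MWT embryos 2 were higher and 1 lower (0.90). Of 10 epiblast markers 4 were called lower in Oct4-KO embryos (median -0.84), and 3 were called higher in Oct4 Ctrl (0.36) and 3 in Oct4 MWT embryos (0.28), with 0 called in the Sox2 line. Of 8 primitive endoderm markers tested, 3 were higher in Sox2 Ctrl (0.41), 4 higher and 2 lower in Oct4 Ctrl (0.50), 1 higher in Oct4-KO (0.49), 1 higher in Sox2-KO (0.27) and 4 lower in Oct4 MWT embryos (-1.49). The primitive endoderm sum in Oct4 MWT embryos was 601 CPM (481 to 643) in early and 206 CPM (115.5 to 433) in late ICMs, with Foxa2 at 0 in both.

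From morula to early ICM the epiblast median was above 0 in all 5 groups, with 9 of 10 markers called higher in Oct4 Ctrl, 1 higher and 3 lower in Oct4-KO, 5 higher in Sox2 Ctrl, 4 higher and 1 lower in Sox2-KO and 7 higher in Oct4 MWT embryos. In the same order 5, 4, 5, 5 and 5 of 8 primitive endoderm markers were called higher and 1, 0, 1, 1 and 1 lower, and 1, 3, 0, 3 and 0 of 10 trophectoderm markers higher and 2, 1, 6, 2 and 2 lower. The part of these markers in the stage steps of the members below was not tested.

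Myc fell from morula to early ICM in the Oct4 line. In Oct4 Ctrl embryos it ran from 10.3 through 30.1 to 89.3 CPM in morulae and from 1.21 through 6.08 to 26.8 CPM in early ICMs, a log2 change of -2.23 ± 0.49 (adjusted p = 7.05e-05). In Oct4-KO embryos the change was -1.28 ± 0.50 (adjusted p = 0.0281), and in Oct4 MWT embryos -1.49 ± 0.59 (adjusted p = 0.0335). The MWT call was lost with library totals (0.0569), thinned counts (0.0927) and limma (0.0633), and the Oct4-KO one fell under the fold threshold with limma (-0.91). All 8 early Oct4 Ctrl ICMs lay below the morula median, and 7 of 8 Oct4-KO ones did. Myc did not pass this step in the Sox2 line, at -0.76 ± 0.41 in Ctrl (adjusted p = 0.114) and -0.38 ± 0.42 in KO embryos (adjusted p = 0.476). From early to late ICM it rose in Oct4 Ctrl embryos, from 8.48 ± 7.93 to 22.2 ± 22.6 CPM (1.35 ± 0.53, adjusted p = 0.0405), a call that was lost with library totals (adjusted p = 0.05002) and in the fit of all embryos (0.0593) and fell under the fold threshold with limma (0.87). No other group passed in that step, with early and late means of 9.86 and 9.05 CPM in Oct4-KO and 11.3 and 12.3 CPM in Oct4 MWT embryos. In the Sox2 line they were 28.2 and 47.3 CPM in Ctrl and 26.5 and 18.1 CPM in KO embryos.

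Mycn rose from morula to early ICM in the KO embryos of both lines. In Oct4-KO embryos it went from 0, 9.67 and 22.3 CPM (lowest, median, highest) in morulae to 30.4, 53.9 and 106 CPM in early ICMs, without overlap (log2 change 2.39 ± 0.48, adjusted p = 1.72e-05). In Sox2-KO embryos it went from 0.945, 6.72 and 12.3 CPM to 17.3, 27.4 and 56.0 CPM, also without overlap (2.18 ± 0.52, adjusted p = 0.000248). In Ctrl embryos the same step gave 0.71 ± 0.48 in the Oct4 line and 0.28 ± 0.57 in the Sox2 line, and neither passed (adjusted p = 0.226 and 0.709). Nor did it in Oct4 MWT embryos (0.35 ± 0.64, adjusted p = 0.689).

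From early to late ICM Mycn went from 10.3 ± 4.502 to 62.5 ± 54.0 CPM in Sox2 Ctrl (2.61 ± 0.48, adjusted p = 0.000196) and from 31.8 ± 14.3 to 43.1 ± 20.7 CPM in Sox2-KO embryos (0.44 ± 0.43, adjusted p = 0.651). In the Oct4 line it rose in Ctrl (1.38 ± 0.44, adjusted p = 0.00932), KO (1.24 ± 0.39, adjusted p = 0.00986) and MWT embryos (1.77 ± 0.57, adjusted p = 0.0137), of which the KO call was lost with limma (0.82, adjusted p = 0.0831). The differences between Ctrl and KO embryos in these steps were tested themselves and did not pass: the KO effect in early ICMs exceeded that in morulae by 1.68 ± 0.69 in the Oct4 line (adjusted p = 0.158) and by 1.90 ± 0.79 in the Sox2 line (adjusted p = 0.271), and the late effect minus the early one was -2.17 ± 0.65 in the Sox2 line (adjusted p = 0.163) and -0.15 ± 0.58 in the Oct4 line (adjusted p = 0.947).

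Among the 7 tests of a difference in KO effect 0 of 8 members were called in each. They comprise the Oct4 effect minus the Sox2 effect in morulae (0.356% of all genes called), early ICMs (5.52%) and late ICMs (6.3%), the early effect minus the morula effect in the Oct4 (3.29%) and Sox2 line (0.882%), and the late effect minus the early one in the Oct4 (3.11%) and Sox2 line (0.0427%). Between 0 and 3 members had an unadjusted p under 0.05 in each edgeR test. For Mycn the Oct4 effect in late ICMs exceeded the Sox2 effect by 1.62 ± 0.57 (95% interval 0.49 to 2.76, adjusted p = 0.0582), and with no filter on low counts it was called (1.63, adjusted p = 0.0409). Limma on rlog values called Mycn for the Oct4 effect in early ICMs minus that in morulae (1.70, adjusted p = 0.0369), and DESeq2 called 0 throughout. For Mycl the effects of the 2 lines differed by 0.46 ± 1.03 in early ICMs and by 0.11 ± 0.87 in late ICMs, with 95% intervals of -1.59 to 2.503 and -1.61 to 1.84.

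From morula to early ICM Max, Mga and Mlx each fell in some groups, and Mnt rose in the Sox2 line. Max fell by 0.51 ± 0.13 on the log2 scale in Oct4 Ctrl, 0.65 ± 0.13 in Oct4-KO, 0.69 ± 0.12 in Sox2 Ctrl and 0.86 ± 0.12 in Sox2-KO embryos, with adjusted p of at most 0.000485, each passing the adjusted p alone, and its change of -0.21 ± 0.15 in Oct4 MWT embryos did not pass (adjusted p = 0.278). These are among 3 (48% of all genes), 5 (45.1%), 3 (51.7%) and 6 (51.9%) members that did so, and 2 did in Oct4 MWT embryos (43%). Mga fell by 0.63 ± 0.15 in Sox2 Ctrl and 0.67 ± 0.15 in Sox2-KO embryos (adjusted p = 0.000294 and 0.000128) and by 0.46 ± 0.15 in Oct4-KO embryos (adjusted p = 0.0105), but its changes of 0.10 ± 0.15 in Oct4 Ctrl and 0.09 ± 0.18 in Oct4 MWT embryos did not pass (adjusted p = 0.628 and 0.712). Mlx fell by 0.62 ± 0.17 in Oct4 Ctrl, 0.51 ± 0.17 in Oct4-KO, 0.75 ± 0.20 in Oct4 MWT and 0.49 ± 0.17 in Sox2-KO embryos (adjusted p of at most 0.00949), and its change of -0.27 ± 0.16 in Sox2 Ctrl embryos did not pass (adjusted p = 0.153).

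Mnt went from 6.26, 12.9 and 14.6 CPM (lowest, median, highest) in Sox2 Ctrl morulae to 15.1, 28.4 and 43.6 CPM in early ICMs. Every early ICM lay above every morula. The log2 change was 1.34 ± 0.22 (adjusted p = 2.71e-07), and in Sox2-KO embryos it was 0.57 ± 0.22 (adjusted p = 0.0253). From early to late ICM Mnt rose in Oct4 Ctrl embryos by 0.77 ± 0.23 (adjusted p = 0.00599) and in Oct4 MWT embryos by 1.04 ± 0.26 (adjusted p = 0.000953, without overlap; 0.86 and under the fold threshold with limma). Its change of 0.24 ± 0.23 in Oct4-KO embryos did not pass (adjusted p = 0.471). Mga fell in that step by 0.49 ± 0.16 in Oct4 Ctrl (adjusted p = 0.0111), 0.65 ± 0.17 in Oct4-KO (adjusted p = 0.00142) and 0.58 ± 0.18 in Oct4 MWT embryos (adjusted p = 0.00946). By the adjusted p alone 4 members passed in this step in Oct4 Ctrl (32.4% of all genes), 2 in Oct4-KO (32.5%) and 4 in Oct4 MWT embryos (26%). The last 4 included Mlx (0.68 ± 0.20, adjusted p = 0.00661). In the Sox2 line Mga did not pass, with early and late means of 48.3 and 45.6 CPM in Ctrl and 46.7 and 35.1 CPM in KO embryos. Nor did Mnt, at 30.4 and 31.2 CPM in Ctrl and 24.6 and 29.1 CPM in KO embryos. Oct4 and Sox2 embryos were not compared directly in these steps.

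MWT embryos were set against Ctrl embryos, which lack the maternal gene, and the MWT embryos' own genotypes are not given. In the Oct4 line 0 of 8 members were called against Ctrl in morulae (0.0646% of all genes), early ICMs (0.373%) and late ICMs (0.797%), and 1, 0 and 0 members had an unadjusted p under 0.05 in edgeR, while DESeq2 and limma called 0. In Sox2 early ICMs 1 of 8 was called (2.58%). Myc ran from 24.8 through 94.5 to 250.3 CPM in 7 MWT embryos and from 6.64 through 21.9 to 68.9 CPM in 8 Ctrl embryos. All 7 MWT embryos lay above the Ctrl median, with overlap through 2 of them. The mean was 107 ± 72.5 CPM in MWT and 28.2 ± 19.7 CPM in Ctrl embryos (log2 difference 1.93 ± 0.44, adjusted p = 0.00244), and the call was kept without any 1 embryo (1.56 to 2.26).

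In the same embryos Mycl was lower in MWT without passing, at 2.52 ± 1.79 against 7.03 ± 4.02 CPM (log2 difference -1.46 ± 0.53, adjusted p = 0.0813), and it was called without Ctrl embryo 2 (adjusted p = 0.0463). Max was at 48.4 ± 6.06 against 64.7 ± 10.1 CPM (-0.42 ± 0.14, adjusted p = 0.0518). The 10 primitive endoderm markers, with Foxa2 at 0 in both groups, summed to 1209.8 CPM (986 to 1404) in MWT and 727 CPM (219.6 to 894) in Ctrl embryos, with no overlap. Of the 8 tested 1 was called higher, Gata6, and the median log2 difference was 0.09. The trophectoderm sum was 512 CPM (352 to 1359) against 509 CPM (190.3 to 652), with 1 of 10 called higher, Cdx2, and a median of 0.66. The epiblast sum was 2704.5 CPM (1929 to 3119) against 2757 CPM (2236 to 4597), with 2 of 10 called lower, Tdgf1 and Fgf4, and a median of -0.19. These 4 markers are named after their values were seen. The part of these markers in the Myc difference was not tested. The MWT and KO comparisons share the same Ctrl embryos.

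The rest of the network was described from lists of related genes, whose counts stand beside 10.9%, 18.1%, 3.27% and 6.95% of all genes called in Oct4 early, Oct4 late, Sox2 early and Sox2 late ICMs. Of 7 further family members, Mxd1, Mxd3, Mxd4, Mlxip, Mlxipl, Bmyc and Mycs, 6 were tested, since Mycs had at most 1 UMI per Ctrl or KO group. In Oct4-KO early ICMs 1 of 6 was called higher (Bmyc) and 3 lower (Mxd3, Mxd4 and Mlxipl), and the median log2 fold change of the 6 was -0.52 against 0.01 over all genes. In Oct4-KO late ICMs 1 was higher (Bmyc) and 2 lower (Mxd3 and Mlxipl), with a median of -0.13. In Sox2-KO early ICMs 1 was higher (Mlxipl) with a median of 0.63, and in Sox2-KO late ICMs 1 was higher (Mlxipl) and 1 lower (Mxd3) with a median of 0.06. Mxd3 and Mxd4, repressors that pair with Max, were under 20 CPM in these groups and are named after their values were seen, as are L3mbtl2, Yaf2 and Psmc3ip elsewhere.

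Bmyc, a Myc paralogue without a DNA-binding region, reached higher levels than any of the 8 members. It ran from 45.9 through 68.5 to 116 CPM in Oct4 Ctrl and from 116 through 211 to 351 CPM in Oct4-KO early ICMs, where the groups met at a single level (log2 fold change 1.598 ± 0.27, adjusted p = 3.02e-06). In late ICMs it ran from 87.1 through 191 to 235 CPM in Ctrl and from 431 through 505 to 825 CPM in KO embryos, without overlap (1.68 ± 0.26, adjusted p = 1.73e-07). The Sox2 effects were 0.63 ± 0.27 and 0.16 ± 0.27 and did not pass (adjusted p = 0.160 and 0.779). The Oct4 effect exceeded the Sox2 effect by 1.52 ± 0.38 in late ICMs (adjusted p = 0.00406).

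Mlxipl, the carbohydrate-response factor that dimerizes with Mlx, moved in opposite directions. In the Sox2 line it ran from 0 through 7.55 to 30.1 CPM in Ctrl and from 24.7 through 34.8 to 85.7 CPM in KO early ICMs, and from 2.23 through 6.68 to 17.6 CPM in Ctrl and from 51.3 through 67.4 to 91.6 CPM in KO late ICMs. The late groups did not overlap. The log2 fold changes were 2.13 ± 0.37 and 3.31 ± 0.39 (adjusted p = 1.75e-05 and 1.12e-10). In the Oct4 line it was lower in KO embryos, from 9.40 ± 3.11 to 2.28 ± 3.51 CPM in early ICMs (-2.02 ± 0.54, adjusted p = 0.00334) and from 5.41 ± 3.45 to 0.983 ± 1.14 CPM in late ICMs (-2.21 ± 0.73, adjusted p = 0.0135). The difference between the lines was -4.15 ± 0.65 at the early and -5.52 ± 0.82 at the late stage (adjusted p = 1.64e-06 and 3.51e-07).

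Txnip, a redox regulator and a classic target of Mlx dimers, also moved in opposite directions in late ICMs. It was at 18.5 ± 14.9 CPM in Sox2 Ctrl and 87.3 ± 67.7 CPM in Sox2-KO embryos (log2 fold change 2.23 ± 0.40, adjusted p = 1.63e-05) and at 30.7 ± 21.1 and 9.28 ± 7.37 CPM in Oct4 Ctrl and KO embryos (-1.66 ± 0.47, adjusted p = 0.00334). The groups overlapped in both lines, and the difference between the lines was -3.89 ± 0.61 (adjusted p = 1.95e-06). Of the 3 listed targets of Mlx dimers, Arrdc4 and Pklr were not called in any KO comparison.

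**Figure D5:**
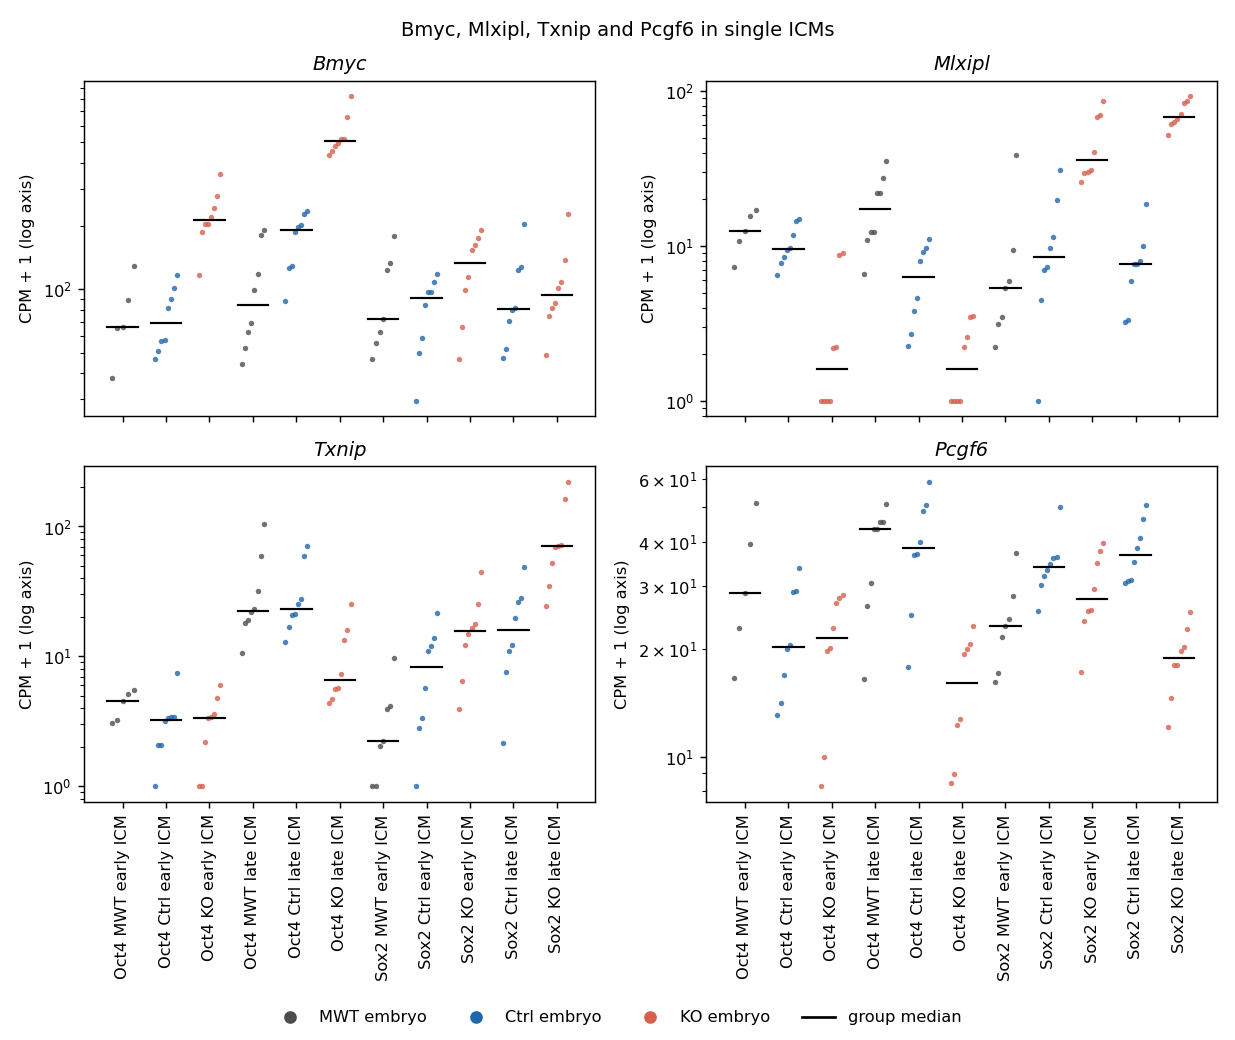
Bmyc, Mlxipl, Txnip and Pcgf6 in single early and late ICMs, as CPM + 1 on a log axis, with a bar at the group median. Bmyc stands at 431 CPM or more in Oct4-KO late ICMs, Mlxipl at 51.3 CPM or more in Sox2-KO late ICMs, and Pcgf6 is lower in the late KO ICMs of both lines.

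Pcgf6, a partner of Mga in PRC1.6, was lower in late KO ICMs of both lines. Of 11 genes of the complex, edgeR called 0 in early ICMs of either line, where 6 (Oct4) and 5 (Sox2) had an unadjusted p under 0.05, while in Oct4-KO late ICMs 3 were lower (Pcgf6, Hdac1 and L3mbtl2) and 1 higher (Yaf2), beside 8.85% and 9.25% of all genes, and in Sox2-KO late ICMs 1 was lower (Pcgf6), beside 3.61%. With 11 genes these counts do not set the complex apart from all genes. The median log2 fold changes were -0.18 and 0.05 in the late ICMs, against -0.01 and 0.00 over all genes. Pcgf6, which defines the complex, ran from 16.9 through 37.4 to 57.8 CPM in Oct4 Ctrl and from 7.46 through 15.1 to 22.2 CPM in Oct4-KO late ICMs (log2 fold change -1.35 ± 0.22, adjusted p = 3.44e-07). In the Sox2 line it ran from 29.6 through 35.7 to 49.5 CPM in Ctrl and from 11.1 through 17.9 to 24.4 CPM in KO late ICMs, without overlap (-1.03 ± 0.20, adjusted p = 8.89e-05). Hdac1, a histone deacetylase, fell from 349 to 148 CPM in Oct4-KO late ICMs (-1.22 ± 0.13, adjusted p = 4.49e-13).

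Some of the germline genes that PRC1.6 is known to silence were called. Of 14 listed, 9 were tested, and in Oct4-KO ICMs 2 were called lower at each stage, beside 6.11% and 8.85% of all genes, and 0 higher. The median log2 fold changes of the 9 were -0.81 and -1.23, against 0.01 and -0.01 over all genes. Stk31, a kinase of the germline, fell from 23.1 to 7.18 CPM in Oct4-KO late ICMs (-1.66 ± 0.31, adjusted p = 1.06e-05). For Sox2, 1 was higher in early ICMs (median -0.17), and in late ICMs 1 was higher and 1 lower (median -0.54), beside 3.27% and 6.95% of all genes called. With 9 genes these counts are too small to read against those shares. Sycp3, a protein of the synaptonemal complex, rose from 78.6 to 168 CPM in Sox2-KO late ICMs (1.11 ± 0.24, adjusted p = 0.000419).

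Among the Sin3 corepressor genes, which serve Mnt and Mxi1, 1 of 8 was lower in every KO ICM comparison, and it was Sap30, a subunit of the Sin3 complex. In Oct4-KO late ICMs 1 was also higher, Rbbp7, a histone-binding subunit, which rose from 374 to 786 CPM (1.08 ± 0.20, adjusted p = 4.85e-06). Sap30 fell from 49.7 to 2.34 CPM and from 66.9 to 3.34 CPM in early and late Oct4-KO ICMs, and from 52.1 to 8.23 CPM and from 41.8 to 4.41 CPM in Sox2-KO early and late ICMs. Each KO group lay below its Ctrl group without overlap, with log2 fold changes of -4.34 ± 0.36, -4.26 ± 0.35, -2.63 ± 0.29 and -3.24 ± 0.33. The medians of the 8 genes in the same order were -0.07, -0.41, -0.10 and -0.19, and by the adjusted p alone 3, 5, 1 and 1 were lower and 0, 1, 0 and 0 higher, beside 21%, 31.7%, 7.04% and 13.8% of all genes in either direction. In Oct4 morulae, where 0.804% of all genes were called, Sap30 was the 1 of 8 called, from 23.1 ± 11.1 CPM in Ctrl to 8.74 ± 3.41 CPM in KO embryos with overlap (-1.37 ± 0.30, adjusted p = 0.0032), and in Sox2 morulae its change of -0.18 ± 0.23 did not pass (adjusted p = 1.0).

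Cofactors and stability regulators of Myc proteins changed in both directions in Oct4-KO ICMs, mostly by less than the fold threshold. Of 19, by the adjusted p alone 4 were higher and 5 lower in Oct4-KO early ICMs (21% of all genes in either direction) and 2 higher and 6 lower in Oct4-KO late ICMs (31.7%). With the fold threshold, in Oct4-KO early ICMs 1 was higher, the kinase Pim1, which rose from 41.7 to 109.6 CPM (1.39 ± 0.24, adjusted p = 5.04e-06). In Oct4-KO late ICMs 1 was higher, Gsk3b, a kinase that marks Myc proteins for degradation, which rose from 86.1 to 182 CPM (1.10 ± 0.15, adjusted p = 1.34e-09), and 1 was lower, Skp2, a ubiquitin ligase subunit, which fell from 68.3 to 23.4 CPM (-1.50 ± 0.26, adjusted p = 2.64e-06). For Sox2, edgeR called 0 of 19 at either stage, with 6 and 8 at an unadjusted p under 0.05 and 3 and 4 passing the adjusted p alone (7.04% and 13.8% of all genes). The medians over the 4 comparisons lay between -0.09 and 0.02.

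Of 30 well-known Myc target genes, most of them for ribosome production, 3 were called lower in the early and 4 in the late ICMs that lacked Oct4, beside 6.11% and 8.85% of all genes called lower and 10.9% and 18.1% called in either direction. By the adjusted p alone 5 and 10 passed in these comparisons (21% and 31.7% of all genes). EdgeR called 0 in Sox2-KO ICMs, where 8 and 8 had an unadjusted p under 0.05 and 1 and 4 passed the adjusted p alone (7.04% and 13.8% of all genes). The median log2 fold changes were -0.16, -0.27, -0.15 and -0.02, against values between -0.01 and 0.01 over all genes. Odc1, the first enzyme of polyamine synthesis, fell from 688 to 304 CPM in Oct4-KO early ICMs (-1.18 ± 0.21, adjusted p = 7.71e-06). Shmt2, a mitochondrial enzyme of serine metabolism, fell from 37.9 to 17.6 CPM at the early stage (-1.10 ± 0.30, adjusted p = 0.00466) and from 91.1 to 20.3 CPM at the late stage (-2.12 ± 0.29, adjusted p = 4.55e-09). Rrs1, a ribosome assembly factor, fell from 52.4 to 24.4 CPM in Oct4-KO late ICMs (-1.07 ± 0.19, adjusted p = 4.72e-06). By edgeR 0 of the 30 were called higher in any KO ICM comparison.

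The genes whose pattern over the 16 group means was most like that of a member were found by Pearson's r on log2(CPM + 1), among 7,933 genes with at least 20 CPM in at least 1 group. For Myc they were Pigp, Cyp51 and Sqle (r = 0.90, 0.88 and 0.85), for Mycn Tspan15, Dppa1 and Lurap1l (0.93, 0.93 and 0.92), and for Mycl 1700061G19Rik, Zfp518b and Platr10 (0.91, 0.90 and 0.90). For Max they were Dhx33, Cyb5r4 and Ppp2r5e (0.92, 0.91 and 0.90), for Mga Set, Tcof1 and Xpo4 (0.91 each), and for Mnt Gemin7, Akt2 and Lamtor4 (0.91, 0.91 and 0.90). Mxi1 had the least similar partners, Apoa1, Abhd11os and Slc25a21 (0.81, 0.79 and 0.79), and for Mlx they were Rimklb, Rasl10a and Pcid2 (0.91, 0.91 and 0.90). These values describe the 16 group means, several of which share a line or a stage, and carry no test.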

How the data were processed

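Single-embryo RNA-seq libraries, enriched for 3′ ends and carrying UMIs, were made from 96 Ctrl and KO and 27 MWT embryos. The authors, as their methods state, used UMI-tools for the tags and Cutadapt for poly-A ends, placed reads on mm10 by TopHat2 with GENCODE transcripts, assigned them with featureCounts (strand use not stated) and estimated molecules with TRUmiCount; versions of these tools are not given in the sources used here. The deposited table holds the resulting raw UMI counts for 29,022 genes, of which 1,124 had 0 UMIs throughout. A second deposited table holds rlog values on a log2 scale for 15,747 genes, made by the authors with DESeq2. Groups came from the sample titles.

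Genes detected in 0.5 or more of the embryos at 1 stage or more were tested with edgeR 4.0.16 (R 4.3.3; TMM, glmQLFit, glmQLFTest, no covariates), over 96 embryos in 12 groups (14,053 genes) or all embryos in 16 groups (13,923 genes), with Benjamini-Hochberg adjustment over all genes tested. Every adjusted p without another tool's name comes from these fits. To be called, a gene had to reach an adjusted p below 0.05 together with a change of 1 log2 unit or more. SE is the absolute log2 fold change divided by the square root of F, and 95% intervals use the t distribution with the test's degrees of freedom. There were 27 comparisons. DESeq2 1.42.0, limma 3.58.1 on the rlog values, other scalings, filters and leave-one-out fits served as alternatives, and the fits were tested on simulated counts. Leave-one-out fits kept the negative binomial dispersions (estimates of spread) of the full fit, so the embryo left out still shaped them.

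The 8 members and all gene lists were chosen with earlier results of these data known, so they are not independent of them. Besides the members, the named genes are, per list and KO ICM comparison, up to 2 called genes in each direction with the largest change and 20 CPM or more in whichever group was higher, and the 3 genes most similar to each member. Over 416 pairs of embryos within groups, the lowest chi-square per gene was 1.85, so no library appeared to be entered again. ERCC spike-ins and chromatin data were not used here. Depth per embryo sets the precision: at these totals a level near 1 CPM rests on about 1 UMI.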

Additional observations from a re-analysis of the deposited data

Results flagged for a closer look

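In 14 of the 128 combinations of a member and a group, 1 embryo stood apart from the rest of its group by Dixon's test at the 95% level. Chance alone passes this test in about 1 group of 20 when values are normally distributed. The rate for counts such as these was not measured, so the 14 cannot be read as an excess. For Myc these were Oct4 Ctrl early ICM 9 (26.8 CPM, next embryo 11.02), Oct4 Ctrl late ICM 2-4 (73.1 CPM, next 32.3), Sox2 Ctrl morula 7 (97.2 CPM, next 53.3) and Sox2 Ctrl late ICM 2-1 (130.1 CPM, next 68.2). Myc in the last of these bears on the call in Sox2-KO late ICMs, as given above. For Mycn they were Oct4 MWT morula 1 (50.6 CPM, next 7.67), Oct4 MWT late ICM 11 (148 CPM, next 56.6) and Sox2 Ctrl morula 5 (21.9 CPM, next 11.3).

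For Mycl the embryos that stood apart were all KO ICMs, in groups where most embryos had 0 or 1 UMI: Oct4-KO early ICM 10 (4.13 CPM), Oct4-KO late ICM 2-6 (3.70 CPM) and Sox2-KO early ICM 8 (6.02 CPM). For Max they were low ones, Sox2 MWT early ICM 1 (36.0 CPM, next 48.0) and Sox2 Ctrl late ICM 2-3 (41.5 CPM, next 60.1). Mga was high in Oct4 MWT late ICM 19 (104 CPM, next 60.4), and Mnt was high in Oct4 MWT morula 3 (28.4 CPM, next 20.8).

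The KO effect on Max in late ICMs differed between the Oct4 and the Sox2 line by 0.56 ± 0.19 on the log2 scale (edgeR interaction contrast, adjusted p = 0.0488), below the fold threshold of a call.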

How the results depend on the processing

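Over 1752 results recomputed under an alternative, 1690 stayed on their side of the threshold, among them 54 uncalled ones that changed sign. Of the rest 36 were weaker, 26 stronger and 0 reversed. Most of the 1752 were uncalled in the main fits and so could not become weaker, and the adjusted p alone cannot lose a call. The 1690 therefore say little about how firm the calls were. The number of members called moved as follows. With the adjusted p alone it became 3 in Oct4-KO early ICMs (with Mga), 4 in Oct4-KO late ICMs, 3 in Sox2-KO late ICMs (with Max) and 1 for the Oct4 minus Sox2 effect in late ICMs. In the stage steps it then became 3 (Oct4 Ctrl), 5 (Oct4-KO), 3 (Sox2 Ctrl), 6 (Sox2-KO) and 2 (Oct4 MWT) from morula to early ICM, and 4 (Oct4 Ctrl), 2 (Oct4-KO) and 4 (Oct4 MWT) from early to late ICM. With library totals it was 1 in Oct4-KO early ICMs, 1 in Oct4-KO late ICMs, 1 in the Oct4 Ctrl step from early to late ICM and 0 in the Oct4 MWT step from morula to early ICM. With all counts thinned to the lowest total it was 1 in Oct4-KO early, 1 in Sox2-KO early and 1 in Sox2-KO late ICMs, and 0 in that MWT step. With limma on rlog values, whose shrunken folds left every Mycl KO call below the fold threshold except in Sox2-KO early ICMs, it was 1 in Oct4-KO early, 0 in Oct4-KO late and 0 in Sox2-KO late ICMs. It was then 1 for the Oct4 effect in early ICMs minus morulae, 1 in the Oct4-KO step and 0 in the MWT step from morula to early ICM, and 1 (Oct4 Ctrl), 0 (Oct4-KO) and 1 (Oct4 MWT) from early to late ICM. Fitting only the compared groups gave 1 in Oct4-KO late ICMs, the fit of all embryos gave 1 in the Oct4 Ctrl step from early to late ICM, and no filter gave 1 for the Oct4 minus Sox2 effect in late ICMs. The Sox2-KO step from morula to early ICM gave 1 under size factors of the RLE kind, library totals, thinning, no filter, DESeq2, limma and the fit of all embryos.

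Leaving out 1 embryo at a time gave 1 to 2 calls in Oct4-KO early, 1 to 3 in Oct4-KO late, 1 to 2 in Sox2-KO early and 1 to 2 in Sox2-KO late ICMs and 1 to 2 for Sox2 MWT against Ctrl early ICMs, and 0 throughout in the morula comparisons and the other MWT comparisons. Replicate numbers are shared by 1 to 4 Ctrl and KO embryos per ICM comparison, and the deviations of same-numbered embryos correlated between -0.07 and 0.19. So few embryos cannot tell whether a shared number marks a pairing, and the tests treat all embryos as unpaired. A replicate block on those embryos gave 1 call in Oct4-KO early and 1 in Sox2-KO late ICMs, and the same embryos with no replicate block gave 0 in each of those and 1 in Sox2-KO early ICMs, in fits with far fewer embryos. Apart from the shrunken folds and the smaller fits named here, the cause of these shifts was not tested. Depth limits Mycl, which had 6 to 7 UMIs over the 8 embryos of each KO ICM group.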

Other observations

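Several less abundant genes of the network, chosen after their values were seen, also passed the test. Mxd3, a repressor that pairs with Max, fell in Oct4-KO early ICMs from 6.36 ± 3.30 to 2.26 ± 1.90 CPM (log2 fold change -1.41 ± 0.44, edgeR adjusted p = 0.0138, SD and n = 8 each for levels). It also fell in Oct4-KO late ICMs from 8.39 ± 3.62 to 3.49 ± 3.26 CPM (-1.18 ± 0.42, adjusted p = 0.0235) and in Sox2-KO late ICMs from 8.30 ± 3.07 to 3.28 ± 2.80 CPM (-1.34 ± 0.41, adjusted p = 0.0167). In Sox2-KO early ICMs its change of -0.91 ± 0.34 did not pass (adjusted p = 0.0951), and in all 4 comparisons the groups overlapped. Mxd4, another such repressor, had 27 UMIs over 8 Ctrl and 4 UMIs over 8 KO embryos in Oct4 early ICMs (-2.47 ± 0.73, adjusted p = 0.0085). Mlxip, a partner of Mlx, was at 8.06 ± 5.69 CPM in Ctrl and 15.7 ± 7.81 CPM in KO embryos in Oct4 late ICMs (0.95 ± 0.37), which passed the adjusted p alone (0.0378).

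Among germline genes that PRC1.6 is known to silence, Stag3, a meiotic cohesin subunit, fell from 15.7 to 3.91 CPM in Oct4-KO late ICMs (-1.97 ± 0.40, adjusted p = 3.40e-05). Dazl, a germ-cell RNA-binding protein, fell from 18.1 to 1.94 CPM in Sox2-KO late ICMs (-3.08 ± 0.73, adjusted p = 0.00127).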
